A study of Arabidopsis thaliana with 30 samples.

Results

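The 10 genes described here make, inactivate or respond to brassinosteroids, the steroid growth hormones of plants. They were taken by their AGI identifiers from a table of 33498 genes and are DWF4 (AT3G50660), CPD (AT5G05690), ROT3 (AT4G36380), CYP90D1 (AT3G13730), BR6OX1 (AT5G38970), BR6OX2 (AT3G30180), BAS1 (AT2G26710), BZR1 (AT1G75080), BES1 (AT1G19350) and BEE1 (AT1G18400). The rule uses identifiers and no measured value, and all 10 passed the filter on low counts, with between 77 and 19230 counts per library. The data are RNA-seq gene counts from 30 libraries of Arabidopsis thaliana, 3 for each of 10 lines.

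Brassinosteroids are built from campesterol by a chain of cytochrome P450 enzymes. DWF4 hydroxylates the steroid side chain, a step regarded as rate-limiting, CPD acts on the steroid ring, ROT3 and CYP90D1 hydroxylate the side chain and can replace each other in part, and BR6OX1 and BR6OX2 oxidise the ring to give castasterone, which BR6OX2 can carry on to brassinolide. BAS1 is a P450 that inactivates the hormone. The receptor BRI1 signals through the kinase BIN2 to the transcription factors BZR1 and BES1, which in their active form repress synthesis genes, CPD and DWF4 among them, and activate growth genes. BEE1 is a basic helix-loop-helix factor whose transcript rises early after brassinosteroid is given. The pathway is known for cell elongation in leaves, petioles and hypocotyls.

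The F6 lines came from recurrent selection after a cross of the accessions C24 and Landsberg erecta (Ler). The hybrid mimics are HM-W, HM-S, HM-G, and the 3 F6 lines without that name are Sml-D, Med-E, Med-F. The other groups were the reciprocal F1 hybrids LerXC24 and C24XLer, made by hand pollination, and the parents C24 and Ler. All were untreated 15 day old seedlings grown in 1 experiment on sucrose medium in long days, and whole aerial tissue was taken. The 3 libraries of a parent or F1 are called biological replicates (A, B and C) and those of an F6 line siblings (1, 2 and 3). Neither term says whether a library came from a single plant or a pool, and each F6 line is a single selected lineage.

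All 10 genes lie on the nuclear chromosomes of RefSeq's TAIR10.1. DWF4 lies on chromosome 3 at 18813949 to 18817405, CYP90D1 on chromosome 3 at 4497893 to 4500920 and BR6OX2 on chromosome 3 at 11810726 to 11813883. CPD lies on chromosome 5 at 1702640 to 1706948, BR6OX1 on chromosome 5 at 15594674 to 15598089, ROT3 on chromosome 4 at 17187528 to 17192507 and BAS1 on chromosome 2 at 11380463 to 11383821. BZR1 (28185504 to 28188075), BES1 (6688463 to 6691216) and BEE1 (6331398 to 6333856) lie on chromosome 1. DWF4, CPD, ROT3, CYP90D1 and BR6OX1 are on the minus strand and the other 5 on the plus strand. The exons of CPD, ROT3, BZR1 and BES1 overlap those of a counted gene on the opposite strand, by 20, 83, 282 and 818 bases. The sources used here do not say whether strand was used in counting, so reads in those bases could count for either gene, and the values of these 4 genes are uncertain to that extent. The partner genes averaged 17.1 CPM, which are counts scaled to a common library size, for CPD, 1.39 CPM for ROT3, 11.4 CPM for BZR1 and 23.1 CPM for BES1, below the 183, 7.71, 35.8 and 152 CPM of the genes themselves.

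The 250 bases before the annotated start of 4 genes are shown 5′ to 3′, because their levels separate the lines most (CPD, BR6OX2 and BEE1) or because they hold the most matches (BZR1). The letters searched on both strands were CGTGTG and CGTGCG, the brassinosteroid response element bound by BZR1, CACGTG, the G-box bound by BES1 and by light-signalling factors, and AAATATCT, the evening element. Capitals mark a match. The regions are chr1:6331148-6331397 (plus strand) for BEE1, chr1:28185254-28185503 (plus strand) for BZR1, chr5:1706949-1707198 (minus strand) for CPD and chr3:11810476-11810725 (plus strand) for BR6OX2.
BEE1: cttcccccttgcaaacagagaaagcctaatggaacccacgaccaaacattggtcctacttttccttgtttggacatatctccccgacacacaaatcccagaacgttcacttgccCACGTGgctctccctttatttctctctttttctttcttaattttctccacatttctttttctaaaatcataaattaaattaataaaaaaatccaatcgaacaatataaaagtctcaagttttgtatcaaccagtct
BZR1: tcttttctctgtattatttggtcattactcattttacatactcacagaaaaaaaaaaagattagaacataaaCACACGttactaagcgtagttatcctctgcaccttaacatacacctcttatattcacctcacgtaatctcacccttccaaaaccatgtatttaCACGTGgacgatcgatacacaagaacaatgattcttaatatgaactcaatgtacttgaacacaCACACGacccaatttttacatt
CPD: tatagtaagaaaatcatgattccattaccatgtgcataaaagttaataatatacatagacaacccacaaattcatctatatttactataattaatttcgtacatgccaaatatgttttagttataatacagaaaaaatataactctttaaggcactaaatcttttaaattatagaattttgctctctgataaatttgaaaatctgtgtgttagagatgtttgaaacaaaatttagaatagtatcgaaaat
BR6OX2: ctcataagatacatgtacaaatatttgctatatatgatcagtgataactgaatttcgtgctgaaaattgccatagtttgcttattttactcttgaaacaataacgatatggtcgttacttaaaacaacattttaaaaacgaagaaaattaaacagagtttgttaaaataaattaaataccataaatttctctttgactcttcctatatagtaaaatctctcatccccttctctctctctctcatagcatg

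BEE1 held 1 G-box, 136 bases before its start. BZR1 held a G-box 85 bases before its start and CACACG, the reverse complement of CGTGTG, at 178 and 22 bases. None of these letters stood in the same window of the other 8 genes. Over 26706 genes, 6.58% of such windows held a G-box, 5.37% CGTGTG, 1.58% CGTGCG and 4.84% the evening element. In 1000 bases before the start, either response element stood in DWF4, ROT3, CYP90D1 and BZR1 (21.2% of all genes), a G-box in BZR1 and BEE1 (14.9%) and the evening element in DWF4, ROT3, BR6OX2 and BAS1 (15.4%). These are matches of letters and not measured binding.

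BZR1 and BES1 are close relatives and share a run of 71 coding bases without a difference, at chr1:28186752-28186822 in BZR1 and chr1:6689854-6689924 in BES1, both on the plus strand. It is shown because reads that lie wholly inside it cannot be told apart between the 2 genes.
BZR1 and BES1: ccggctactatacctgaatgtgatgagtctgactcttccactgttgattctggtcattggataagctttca
Of windows of 50 exon bases, 22 of 1777 in BZR1 and 22 of 2339 in BES1 occurred elsewhere on the nuclear chromosomes, on either strand, and 0 in the other 8 genes.

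Libraries held between 41600826 and 53397900 reads, and the gene counts of a library added up to 46822397 to 60757656. Each sum was 1.29 to 1.32 times the number of accepted reads, for a reason the sources do not state. Correlations between libraries of 1 line were 0.983 to 0.993. Of the 3 aerial markers, RBCS1A, a subunit of the carbon-fixing enzyme Rubisco, stood at 13504 CPM or more in every library, as the tissue label says. The 3 root markers summed to between 45.0 CPM in a Ler library and 259 CPM in a C24 library, nearly all of it PYK10, and the 3 floral markers to between 2.40 CPM in C24 and 34.2 CPM in Sml-D. The floral sums were 22.8 to 34.2 CPM in Sml-D, 12.2 to 17.3 CPM in Med-F and 9.53 to 17.1 CPM in Ler, above every mimic library (at most 8.99 CPM), F1 library (at most 4.99 CPM) and C24 library (at most 3.29 CPM), while Med-E (5.91 to 8.09 CPM) overlapped the mimics. None of these defining markers was at 0 in any library, and their part in the results was not tested. The libraries also differed in a clock index, the mean log2 CPM of 5 evening genes (TOC1, LUX, GI, ELF4 and BOA) minus that of 5 morning genes (PRR9, PRR7, LNK1, LNK2 and RVE8). The labels give no harvest time. Its mean was -1.18 for HM-W, -1.31 for HM-S and -1.73 for HM-G among the mimics, and -2.98 for Med-E, -1.60 for Med-F and -2.66 for Sml-D. It averaged -1.05 in LerXC24 (A -1.79, B -0.89, C -0.47), -2.19 in C24XLer (A -2.20, B -2.48, C -1.90), -1.80 in C24 (A -2.37, B -1.91, C -1.11) and -2.56 in Ler (A -2.67, B -2.63, C -2.37), with library C the highest in all 4.

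Per kilobase of exon, CPD was the most abundant of the 10 genes with a mean level of 94.7 CPM per kilobase over the 30 libraries, and BES1 followed with 62.2. BZR1 averaged 18.6, BEE1 9.36 and BR6OX2 8.39 CPM per kilobase. DWF4 (3.91), CYP90D1 (3.78), BAS1 (3.34) and ROT3 (3.22) stood close together, and BR6OX1 was lowest at 1.51 CPM per kilobase. Levels differed among the 10 lines beyond the spread within lines for 9 of the 10 genes by edgeR's quasi-likelihood F test with Benjamini-Hochberg adjustment, where 65% of all 29268 genes tested did so. The 9 adjusted p-values ran from 4.6e-08 for CPD to 0.011 for BAS1, and BES1 was the gene not called (adjusted p = 0.105). The ratio of the highest to the lowest line mean was 4.33 for BR6OX2, 3.10 for CPD, 2.96 for BEE1 and 2.1 for BR6OX1, and between 1.36 (BZR1) and 1.94 (ROT3) for the other 6. In whole aerial tissue fewer cells of a type and less RNA per cell cannot be told apart.

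**Figure D1:**
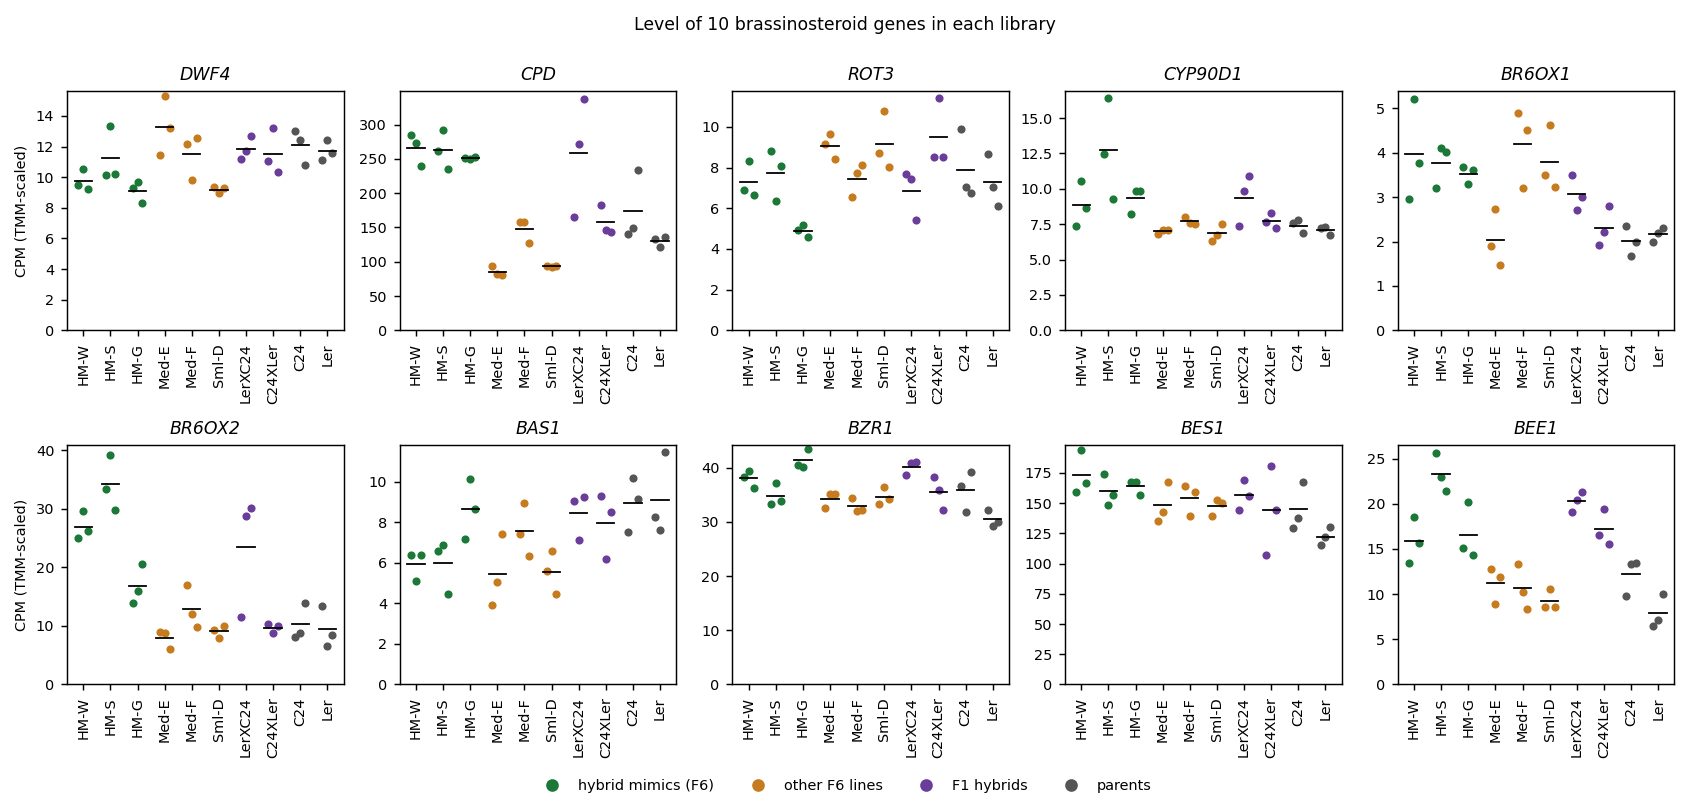
CPM of each of the 10 genes (vertical axis, from 0) in every library (points) of the 10 lines, with the mean of each line as a black bar and colours for hybrid mimics, other F6 lines, F1 hybrids and parents. CPD lay between 235 and 292 CPM in the mimics and between 80.8 and 158 CPM in the other F6 lines, and in BEE1 the 6 F1 libraries all stood above the 6 parent libraries.

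DWF4 varied little. Its line means ran from 9.09 ± 0.71 CPM in HM-G (mean ± SD of 3 libraries, as throughout) to 13.3 ± 1.9 CPM in Med-E, and each line overlapped its neighbour in the order of levels. The lines at the low end were HM-G, Sml-D (9.19 ± 0.21 CPM) and HM-W (9.74 ± 0.67 CPM). The 9 libraries of these 3 lines lay between 8.30 and 10.5 CPM and the 6 parent libraries between 10.8 and 13.01 CPM, without overlap. Against the mid-parent, the mean of C24 and Ler on the log scale, DWF4 fell by 0.39 ± 0.11 in HM-G (log2 change ± standard error, as throughout, adjusted p = 0.017), by 0.37 ± 0.11 in Sml-D (adjusted p = 0.021) and by 0.29 ± 0.11 in HM-W (adjusted p = 0.0498). Every one of these calls could be ended by leaving out a single library. The HM-W call ended without any library of HM-W or Ler and without C24 A or C24 B (-0.35 to -0.25, adjusted p = 0.055 to 0.177). The Sml-D call ended without any of its own 3 libraries (-0.39 to -0.35, adjusted p = 0.060 to 0.085), and the HM-G call without HM-G 3 (-0.33, adjusted p = 0.117).

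CPD separated the lines most clearly. It was at 284, 273 and 239 CPM in HM-W, at 262, 292 and 235 CPM in HM-S and at 252, 250.4 and 253 CPM in HM-G. The other F6 lines were lower. Med-E had 93.9, 81.8 and 80.8 CPM, Med-F had 158, 157 and 127 CPM and Sml-D had 94.5, 92.5 and 93.5 CPM. The F1 hybrids had 165, 271 and 337 CPM in LerXC24 and 183, 146 and 143 CPM in C24XLer, and the parents had 140, 149 and 234 CPM in C24 and 133, 122 and 137 CPM in Ler. The 9 mimic libraries did not overlap the 9 libraries of the other F6 lines, and the lowest mimic library (234.5 CPM) stood just above the highest parent library (233.9 CPM, C24 C). In the order of line means the only gaps without overlap lay between HM-G and C24 and between Ler and Sml-D. LerXC24 had the widest spread within a line (CV 33.5%), and the 3 HM-G libraries were the closest together (CV 0.50%).

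ROT3 was low in a single line. HM-G had 4.93, 5.16 and 4.59 CPM, below every library of the 9 other lines, which ran from 5.43 CPM in LerXC24 C to 11.4 CPM in C24XLer B. ROT3 fell in HM-G by 0.63 ± 0.15 against the mid-parent (adjusted p = 0.0074), a call that no left-out library ended. The highest line mean was that of C24XLer (9.48 ± 1.7 CPM), at 0.32 ± 0.15 above the mid-parent, which was not called (adjusted p = 0.241). CYP90D1, which acts at the same step as ROT3, was highest in HM-S. HM-S had 12.4, 16.4 and 9.29 CPM, against 7.58, 7.77 and 6.85 CPM in C24 and 7.21, 7.27 and 6.76 CPM in Ler. It rose in HM-S by 0.81 ± 0.13 (adjusted p = 7.9e-05), and no other line was called in the fit to all lines. HM-G had 8.25, 9.86 and 9.87 CPM, above every parent library, at 0.36 ± 0.13 (adjusted p = 0.073), and was called in a fit of HM-G and the parents alone (0.36, adjusted p = 0.021). LerXC24 had 7.35, 9.87 and 10.9 CPM, a log2 change of 0.37 ± 0.13 (adjusted p = 0.056) that passed without LerXC24 A (0.52, adjusted p = 0.012) and by DESeq2 (0.37, adjusted p = 0.049), and HM-W passed without HM-W 1 (0.41, adjusted p = 0.049).

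BR6OX1 was the scarcest of the 10 genes and was raised in 5 of the 6 F6 lines. It was at 2.96, 5.21 and 3.76 CPM in HM-W, 3.20, 4.11 and 4.01 CPM in HM-S and 3.67, 3.30 and 3.60 CPM in HM-G. Med-F had 4.90, 3.21 and 4.51 CPM and Sml-D 3.497, 4.63 and 3.23 CPM, while Med-E stood apart with 1.90, 2.74 and 1.48 CPM. The F1 had 3.49, 2.71 and 3.01 CPM in LerXC24 and 1.92, 2.21 and 2.79 CPM in C24XLer, and the parents 2.35, 1.68 and 1.98 CPM in C24 and 1.99, 2.18 and 2.31 CPM in Ler. Every library of HM-W, HM-S, HM-G, Med-F and Sml-D lay above every parent library. BR6OX1 rose against the mid-parent by 1.01 ± 0.18 in Med-F (adjusted p = 2.9e-04), 0.93 ± 0.18 in HM-W (adjusted p = 7.0e-04), 0.86 ± 0.18 in HM-S (adjusted p = 0.0012), 0.86 ± 0.18 in Sml-D (adjusted p = 0.0023) and 0.76 ± 0.19 in HM-G (adjusted p = 0.0074). No left-out library ended any of these 5 calls. Med-E was at -0.03 ± 0.20 (adjusted p = 0.950).

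BR6OX2 had the widest range between lines. It was at 25.0, 29.5 and 26.1 CPM in HM-W, 33.3, 39.2 and 29.8 CPM in HM-S and 13.8, 16.0 and 20.5 CPM in HM-G. Of the other F6 lines Med-E had 8.87, 8.78 and 6.003 CPM, Med-F had 16.9, 12.1 and 9.76 CPM and Sml-D had 9.31, 7.99 and 10.03 CPM. The F1 had 11.5, 28.7 and 30.1 CPM in LerXC24 and 10.3, 8.84 and 9.96 CPM in C24XLer, and the parents 8.13, 8.86 and 13.9 CPM in C24 and 13.4, 6.499 and 8.45 CPM in Ler. All libraries of HM-S stood above all libraries of HM-W, the next line in the order, and HM-W stood above every parent library. LerXC24 A lay with C24XLer and the parents, while LerXC24 B and C lay near the HM-W libraries. HM-G overlapped Med-F and the parents.

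BAS1, which inactivates the hormone, was lower than the mid-parent in 4 F6 lines and higher in none. It averaged 5.95 ± 0.75 CPM in HM-W, 5.98 ± 1.3 CPM in HM-S, 5.47 ± 1.8 CPM in Med-E and 5.55 ± 1.1 CPM in Sml-D, against 8.97 ± 1.3 CPM in C24 and 9.12 ± 2.1 CPM in Ler. The libraries of these 4 lines ran from 3.93 to 7.43 CPM and the parent libraries from 7.55 to 11.5 CPM, with no overlap. HM-G (8.67 ± 1.5 CPM), Med-F (7.56 ± 1.3 CPM), LerXC24 (8.49 ± 1.2 CPM) and C24XLer (7.99 ± 1.6 CPM) lay nearer the parents. BAS1 fell by 0.72 ± 0.20 in Med-E (adjusted p = 0.014), 0.70 ± 0.20 in Sml-D (adjusted p = 0.018), 0.60 ± 0.20 in HM-S (adjusted p = 0.024) and 0.60 ± 0.20 in HM-W (adjusted p = 0.027). Single libraries ended each call. The Med-E call ended without Med-E 1 or Med-E 2 (-0.67 to -0.54, adjusted p = 0.085 to 0.127) and the Sml-D call without Sml-D 1 or Sml-D 3 (-0.71 to -0.57, adjusted p = 0.061 to 0.126). The HM-S call ended without HM-S 3 or Ler C (-0.50 to -0.43, adjusted p = 0.059 to 0.160), and the HM-W call without HM-W 2, HM-W 3, C24 B or Ler C (-0.65 to -0.50, adjusted p = 0.057 to 0.147).

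The transcription factors BZR1 and BES1 moved over narrow ranges. BZR1 was at 40.5, 40.1 and 43.5 CPM in HM-G, above every library of either parent, and at 38.3, 39.3 and 36.3 CPM in HM-W. LerXC24 had 38.7, 40.8 and 41.0 CPM and C24XLer 38.2, 36.0 and 32.1 CPM, against 36.6, 31.8 and 39.1 CPM in C24 and 32.2, 29.2 and 30.0 CPM in Ler. Line means ran from 30.5 ± 1.5 CPM in Ler to 41.3 ± 1.9 CPM in HM-G, and each line overlapped its neighbour. BZR1 rose by 0.32 ± 0.06 in HM-G (adjusted p = 0.0015) and 0.20 ± 0.07 in HM-W (adjusted p = 0.026). The HM-G call was ended by no left-out library. The HM-W call ended without C24 B, Ler B, HM-W 1 or HM-W 2 (0.16 to 0.20, adjusted p = 0.055 to 0.123) and with only HM-W and the parents in the fit (0.20, adjusted p = 0.076). BES1 averaged 173 ± 18 CPM in HM-W and 122 ± 7.5 CPM in Ler, its highest and lowest lines. It rose only in HM-W (0.38 ± 0.11, adjusted p = 0.016), and that call ended without HM-W 2 (0.29, adjusted p = 0.135). Without C24 C, BES1 passed in HM-S (0.32, adjusted p = 0.036) and HM-G (0.36, adjusted p = 0.034), and it passed in HM-G in a fit of HM-G and the parents alone (0.30, adjusted p = 0.035). Both factors are controlled mainly through phosphorylation, which transcript levels do not show.

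BEE1 was high in the mimics and in both F1 hybrids. It was at 13.4, 18.5 and 15.7 CPM in HM-W, 25.6, 23.0 and 21.4 CPM in HM-S and 15.1, 20.2 and 14.3 CPM in HM-G. The other F6 lines had 12.7, 8.90 and 11.9 CPM in Med-E, 13.3, 10.2 and 8.34 CPM in Med-F and 8.57, 10.5 and 8.55 CPM in Sml-D. The F1 had 19.1, 20.4 and 21.3 CPM in LerXC24 and 16.5, 19.4 and 15.6 CPM in C24XLer, and the parents 9.74, 13.3 and 13.5 CPM in C24 and 6.48, 7.10 and 10.02 CPM in Ler. HM-S stood above all other lines without overlap, and the 9 mimic libraries stood above the 9 libraries of the other F6 lines. HM-W overlapped the parents by its lowest library, and HM-G and both F1 hybrids did not overlap them.

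Between the parents 2 of the 10 genes differed, against 25.8% of all genes tested. BEE1 was higher in C24 by 0.63 ± 0.19 (adjusted p = 0.014), with 12.2 ± 2.1 CPM in C24 and 7.87 ± 1.9 CPM in Ler, and BZR1 by 0.23 ± 0.08 (adjusted p = 0.024). The median log2 change of the 10 genes was 0.12, and that of all genes 0.00. CPD was higher in every C24 library than in any Ler library (0.42 ± 0.18) without passing the test (adjusted p = 0.094), and it passed without C24 A (0.55, adjusted p = 0.038). The BEE1 call ended without C24 B, C24 C, Ler A or Ler B (0.51 to 0.56, adjusted p = 0.056 to 0.084), and the BZR1 call without C24 A, C24 C, Ler B or Ler C (0.17 to 0.22, adjusted p = 0.066 to 0.163). With only the 2 parents in the fit 0 of the 10, and 6492 of all 28364 genes tested, were called by edgeR. BEE1 was at 0.63 (adjusted p = 0.055) and BZR1 at 0.23 (adjusted p = 0.112) there. In the fit to all lines 3 of the 10 had an unadjusted p under 0.05, and the share of all genes under that threshold was not counted. DESeq2 called 2 of the 10, and 7717 of all 31137 genes it tested.

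The reciprocal F1 hybrids together were compared with the mid-parent, the question being whether the hybrids differ from the parental average at these genes. Of the 10 genes 3 rose and 0 fell, against 11.5% of all genes tested, which moved in either direction. BEE1 rose by 0.93 ± 0.13 (adjusted p = 5.3e-05), CPD by 0.42 ± 0.13 (adjusted p = 0.037) and BZR1 by 0.19 ± 0.05 (adjusted p = 0.023). BEE1 was at 15.6 to 21.3 CPM (median 19.3) in the 6 F1 libraries and at 6.48 to 13.5 CPM (median 9.88) in the 6 parent libraries. CPD was at 143 to 337 CPM (median 174) in the F1 and at 122 to 234 CPM (median 139) in the parents, and these overlapped. BR6OX2 changed by 0.61 ± 0.20 and missed the threshold (adjusted p = 0.0504). The median change of the 10 genes was 0.21 and that of all genes 0.01.

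The BEE1 call held in all 12 fits that left out 1 F1 or parent library. The CPD call ended in 9 of them (without C24 A, C24 B, Ler A, Ler B, Ler C, C24XLer A, C24XLer B, LerXC24 B or LerXC24 C, at 0.30 to 0.44, adjusted p = 0.050 to 0.133). The BZR1 call ended in 5 (without C24 B, Ler B, C24XLer B, LerXC24 B or LerXC24 C, at 0.15 to 0.19, adjusted p = 0.052 to 0.075). BR6OX2 passed in 3 (without C24 C, Ler A or LerXC24 A, at 0.75 to 0.78, adjusted p = 0.0053 to 0.022) and by DESeq2 (0.61, adjusted p = 0.023), and BES1 in 1 (without C24XLer A, 0.26, adjusted p = 0.028). With only the F1 and parents in the fit CPD (0.42, adjusted p = 0.150) and BZR1 (0.19, adjusted p = 0.094) were not called, where 1845 of all 28789 genes tested were.

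Taken singly, LerXC24 gave 5 rises among the 10 genes (16.5% of all genes were called there) and C24XLer 1 rise (2.34% of all genes). In LerXC24 BR6OX2 rose by 1.25 ± 0.24 (adjusted p = 0.0013), BEE1 by 1.05 ± 0.15 (adjusted p = 1.0e-04), CPD by 0.77 ± 0.15 (adjusted p = 0.0017), BR6OX1 by 0.56 ± 0.19 (adjusted p = 0.042) and BZR1 by 0.28 ± 0.06 (adjusted p = 0.0049). In C24XLer BEE1 rose by 0.81 ± 0.15 (adjusted p = 0.0041), and CPD (0.06 ± 0.16, adjusted p = 0.877) and BR6OX2 (-0.02 ± 0.25, adjusted p = 0.974) lay near the mid-parent. The CPD call in LerXC24 ended without LerXC24 C (0.53, adjusted p = 0.053). The BR6OX1 call there ended without C24 B, C24 C, Ler A, Ler B or any of the 3 LerXC24 libraries (0.46 to 0.64, adjusted p = 0.054 to 0.145), and the BEE1 call in C24XLer ended without C24XLer B (0.71, adjusted p = 0.055).

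The difference between the reciprocal hybrids was tested directly, and 2 of the 10 genes were higher in LerXC24 than in C24XLer, against 4.91% of all genes called. BR6OX2 differed by 1.27 ± 0.29 (adjusted p = 0.019), with 23.4 ± 10 CPM in LerXC24 and 9.70 ± 0.76 CPM in C24XLer. CPD differed by 0.71 ± 0.18 (adjusted p = 0.027), with 258 ± 86 CPM in LerXC24 and 157 ± 22 CPM in C24XLer. BEE1, called in both crosses, differed by 0.24 ± 0.18 (adjusted p = 0.528). For both genes LerXC24 A lay apart from LerXC24 B and C. The CPD call ended without LerXC24 B, LerXC24 C or any C24XLer library (0.47 to 0.83, adjusted p = 0.068 to 0.297), and the BR6OX2 call without LerXC24 B, LerXC24 C, C24XLer A or C24XLer B (1.05 to 1.32, adjusted p = 0.069 to 0.189). With only these 2 hybrids in the fit 0 of all 28290 genes tested were called, the 10 included, CPD being at 0.70 (adjusted p = 0.272) and BR6OX2 at 1.26 (adjusted p = 0.184). In the fit to all lines 4 of the 10 had an unadjusted p under 0.05, and the share of all genes under that threshold was not counted. DESeq2 called 2 of the 10, and 2157 of all 24242 genes it tested.

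Each F6 line was compared with the same mid-parent, so these comparisons share the parent libraries with each other and with those of the F1. Among the mimics HM-W had 6 rises and 2 falls in the 10 genes (24.7% of all genes called), HM-S 5 rises and 1 fall (29.5%) and HM-G 5 rises and 2 falls (13.4%). Among the other lines Med-E had 0 rises and 2 falls (14.6%), Med-F 1 rise and 0 falls (22.7%) and Sml-D 1 rise and 3 falls (13.1%). CPD rose in each mimic, by 0.82 ± 0.15 for HM-W, 0.80 ± 0.15 for HM-S and 0.74 ± 0.15 for HM-G, and fell by 0.82 ± 0.16 in Med-E and by 0.69 ± 0.16 in Sml-D, with adjusted p-values of 4.3e-04 to 0.0050. In Med-F CPD was at -0.03 ± 0.16 (adjusted p = 0.910). No left-out library ended these 5 CPD calls.

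BR6OX2 rose in the 3 mimics, by 1.45 ± 0.24 in HM-W (adjusted p = 1.1e-04), 1.79 ± 0.24 in HM-S (adjusted p = 5.9e-06) and 0.77 ± 0.24 in HM-G (adjusted p = 0.036). The HM-G call ended without C24 A, C24 B, Ler B, Ler C, HM-G 2 or HM-G 3 (0.60 to 0.80, adjusted p = 0.063 to 0.212) and with only HM-G and the parents in the fit (0.76, adjusted p = 0.057). BEE1 rose by 0.70 ± 0.16 in HM-W (adjusted p = 0.0021), 1.25 ± 0.15 in HM-S (adjusted p = 2.0e-06) and 0.76 ± 0.16 in HM-G (adjusted p = 0.0017), and no left-out library ended these calls. Med-E had BR6OX2 at -0.32 and BEE1 at 0.19, Med-F at 0.39 and 0.12, and Sml-D at -0.11 and -0.09, none of them called (adjusted p = 0.265 to 0.826).

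**Figure D2:**
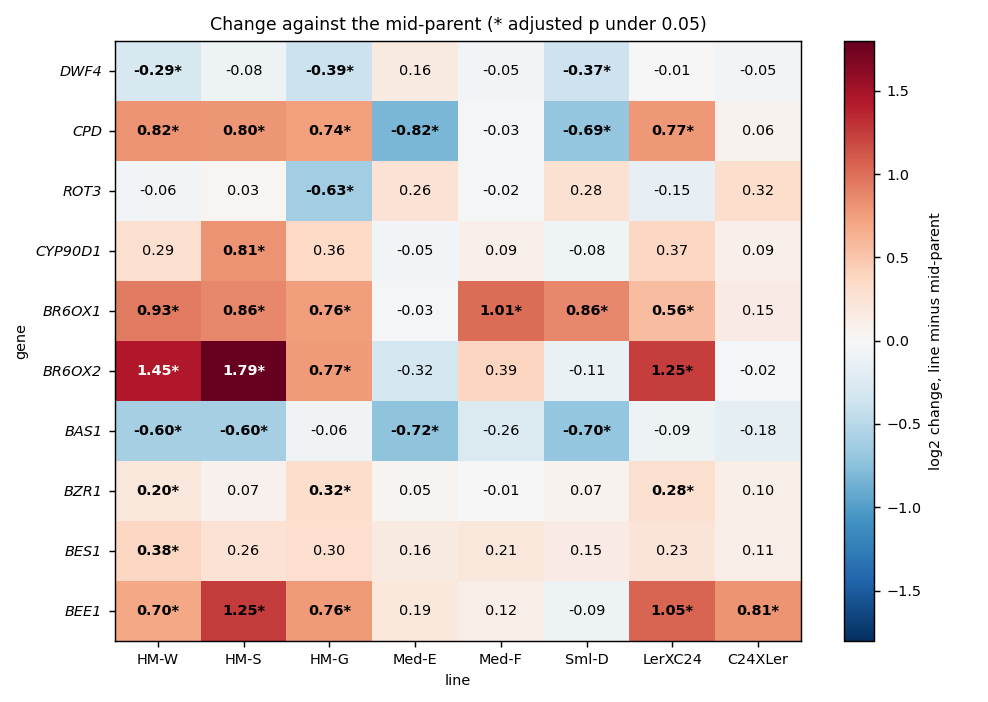
Log2 change of each of the 10 genes (rows) against the mid-parent in 6 F6 lines and 2 F1 hybrids (columns), red above and blue below, with an asterisk at an adjusted p under 0.05. CPD is above the mid-parent in the 3 mimics and LerXC24 (0.74 to 0.82) and below it in Med-E and Sml-D (-0.82 and -0.69), and BR6OX1 is called in every F6 line except Med-E.

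A line counted as outside the parental range at a gene when it was called against C24 and against Ler in the same direction. This held for 19 of the 80 pairs of line and gene, against 4.28% of such pairs over all genes tested. The pairs above the range were CPD, BR6OX1 and BR6OX2 in HM-W, CPD, CYP90D1, BR6OX1, BR6OX2 and BEE1 in HM-S, BR6OX1 in HM-G, Med-F and Sml-D, and CPD, BR6OX2 and BEE1 in LerXC24. Those below it were DWF4 and ROT3 in HM-G, CPD and BAS1 in Med-E and BAS1 in Sml-D. BZR1 and BES1 were never outside it, nor was any gene in C24XLer. Without C24 B the number was 12.

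For the mimics and the other F6 lines the counts of the 3 siblings were added up, so that a line gave 1 value and 3 values stood against 3. By edgeR 0 of the 10 genes were called, against 1.48% of all genes tested, while 4 had an unadjusted p under 0.05 and DESeq2 called 4, and 2964 of all 27235 genes it tested. These 4 were CPD, CYP90D1, BR6OX2 and BEE1 in both cases. CPD stood at 269, 264 and 255 CPM in the sums of HM-W, HM-S, HM-G, and at 86.2, 149 and 94.7 CPM in those of Med-E, Med-F, Sml-D. Its log2 change was 1.26 ± 0.21 (adjusted p = 0.0501). BR6OX2 stood at 27.2, 34.3 and 17.0 CPM in the mimics and 7.93, 13.01 and 9.24 CPM in the others (1.38 ± 0.30, adjusted p = 0.083), and BEE1 at 16.0, 23.5 and 16.9 CPM in the mimics and 11.3, 10.7 and 9.31 CPM in the others (0.85 ± 0.17, adjusted p = 0.074). The line sums of the mimics lay above those of the other lines without overlap for CPD, CYP90D1, BR6OX2, BZR1, BES1 and BEE1. The smallest of these differences was 0.14 ± 0.08 for BES1 (adjusted p = 0.363). The share of all genes that separate in this way was not counted, nor was that with an unadjusted p under 0.05. These counts are therefore descriptions and no sign that the 10 genes stand apart. Without Med-F, CPD (1.54, adjusted p = 0.0029) and BR6OX2 (1.61, adjusted p = 0.038) passed.

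By a slope fitted in common to all lines, CPD and ROT3 followed the clock index among libraries of the same line, where 6.54% of all genes did. CPD changed by 0.48 ± 0.11 on the log2 scale per unit of the index (adjusted p = 0.0085) and ROT3 by -0.41 ± 0.11 (adjusted p = 0.023), and BR6OX2 was at 0.63 ± 0.20 (adjusted p = 0.062). BEE1 (0.15 ± 0.14, adjusted p = 0.701) and the other 6 genes were not called. Over the 10 line means the correlation of log2 level with the index was 0.915 for CPD, 0.866 for BR6OX2, 0.736 for CYP90D1, 0.711 for BEE1 and -0.496 for ROT3. Index and gene levels share libraries and scaling, so these are descriptions. The LerXC24 library lowest in CPD and BR6OX2 (A) was also the one lowest in the index, and the C24 library highest in both genes (C) was the one highest in the index. Not every line followed the common slope for CPD. The library highest in the index was highest in CPD in HM-G, Med-F, LerXC24, C24 and Ler. It was lowest in CPD in HM-W, Med-E and C24XLer, and lay between in HM-S and Sml-D. HM-G and Med-F, a pair picked after their values were seen, had similar mean indices (-1.73 and -1.60) and CPD levels of 252 ± 1.3 CPM in HM-G and 148 ± 18 CPM in Med-F.

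**Figure D3:**
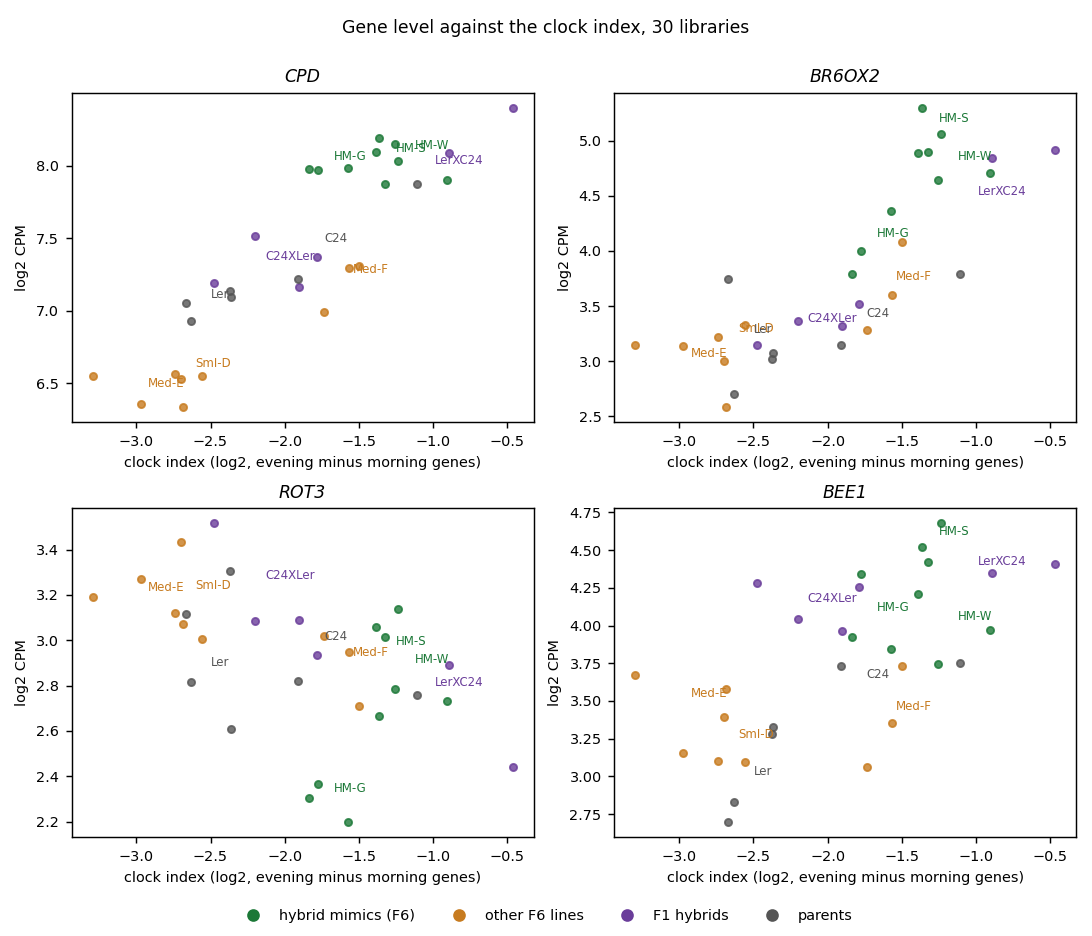
Log2 CPM of CPD, BR6OX2, ROT3 and BEE1 (vertical axes) against the clock index (horizontal axes, log2) in 30 libraries, coloured by kind of line, with line names near the line means. CPD and BR6OX2 are higher in libraries with a higher index, and the 3 HM-G libraries lie lowest in ROT3.

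With the index as a covariate in the same fit, calls over all genes were fewer in every comparison except C24XLer, where they rose. Among the 10 genes the number of calls fell except in 4 comparisons, where it was unchanged. These were C24XLer (1), Med-F (1), the mimics against the other F6 lines (0) and the test among all 10 lines (9). Over all 29268 genes 5789 were called between the parents (7555 without the index), 1372 in the F1 (3378), 178 in LerXC24 (4820), 879 in C24XLer (685) and 0 between the reciprocal hybrids (1438). In the F6 lines the counts over all genes were 1548 for HM-W (7227), 3243 for HM-S (8637), 2488 for HM-G (3920), 1744 for Med-E (4262), 4727 for Med-F (6649) and 2573 for Sml-D (3835). The drop was not confined to the 10 genes. BEE1 was the 1 gene still called in the F1 against the mid-parent (0.85, adjusted p = 0.0013), with CPD at 0.15 (adjusted p = 0.498) and BZR1 at 0.16 (adjusted p = 0.127). Between the parents and between the reciprocal hybrids 0 were called by edgeR in this fit, where CPD differed by 0.11 and BR6OX2 by 0.46 between the hybrids (adjusted p = 1.000 for both). For single hybrids the 1 call was BEE1 in C24XLer (0.82, adjusted p = 0.0034), and BEE1 in LerXC24 was at 0.89 (adjusted p = 0.066). A lost call did not always mean a smaller estimate. BR6OX1 in LerXC24 was at 0.74 with the index (adjusted p = 0.246) and at 0.56 without it (adjusted p = 0.042). In the F6 lines 16 of the 28 calls were made. They were BR6OX1 and BAS1 in HM-W, CYP90D1, BR6OX1, BR6OX2, BAS1 and BEE1 in HM-S, CPD, ROT3, BR6OX1, BZR1 and BEE1 in HM-G, BR6OX1 in Med-F, and DWF4, CPD and BR6OX1 in Sml-D. CPD was at 0.54 in HM-G (adjusted p = 0.0073), -0.44 in Sml-D (adjusted p = 0.038), 0.37 in HM-W (adjusted p = 0.199), 0.40 in HM-S (adjusted p = 0.086) and -0.40 in Med-E (adjusted p = 0.135). The part of harvest time or of the clock in the differences between lines was not tested.

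The synthesis genes did not move as a block. Over the 10 line means of log2 CPM, BR6OX2 correlated with CYP90D1 at 0.915 and with CPD at 0.877, and CPD with CYP90D1 at 0.820. DWF4 and BR6OX1 ran opposite to each other (-0.685), as did CPD and ROT3 (-0.644). Within lines, over the deviations of 30 libraries from their line means, CPD and BR6OX2 stayed close (0.778) and CPD and BR6OX1 did not (-0.232). There DWF4 and BR6OX1 did not run opposite to each other (0.354), while CPD and ROT3 still did (-0.493). These correlations share libraries and scaling and are given as descriptions. Among 13512 genes of at least 10 CPM, those with the pattern most like CPD over the 10 line means were AT1G24160 (r = 0.992) and AT2G31810 (r = 0.990), and those most like BR6OX2 were AT1G08760 (0.982) and AST91 (0.974). Those most like BEE1 were AT1G67050 (0.963) and VAMP714 (0.961), and those most like BZR1 were SETH3 (0.961) and AT5G10160 (0.929). For CYP90D1 they were GATA1 (0.951) and AT1G78110 (0.938), for BR6OX1 AT5G22460 (0.922) and ZEU1 (0.917), for ROT3 ASG8 (0.931) and RPP1 (0.924), for DWF4 AT5G10810 (0.912) and AT5G03830 (0.875), for BES1 EBF2 (0.920) and AXS1 (0.913), and for BAS1 FBA5 (0.882) and REP (0.880). Over the 30 libraries these correlations were lower, from 0.428 to 0.971.

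A further 51 genes of the pathway, listed by role, were counted for comparison, and 50 of them passed the filter on low counts. In the F1 against the mid-parent 15 rose and 1 fell, with a median log2 change of 0.13, where 11.5% of all genes were called. DET2, the steroid reductase early in synthesis, rose by 0.39 ± 0.05 (adjusted p = 2.5e-05) and DWF5, a sterol reductase, by 0.20 ± 0.06 (adjusted p = 0.041), while HYD1, a sterol isomerase, fell by 0.20 ± 0.05 (adjusted p = 0.021), so 2 of 6 sterol and early synthesis genes rose and 1 fell. Of 5 inactivation genes tested 0 were called. Of 17 receptors, kinases and phosphatases 6 rose and 0 fell, of which the largest were those of the kinase BIN2 (0.27 ± 0.09, adjusted p = 0.046), the receptor inhibitor BKI1 (0.24 ± 0.08, adjusted p = 0.045) and BIL2, a relative of BIN2 (0.22 ± 0.05, adjusted p = 0.0092). The other 3 that rose were the co-receptor BAK1 (0.17 ± 0.05, adjusted p = 0.029), the kinase BSK3 (0.17 ± 0.05, adjusted p = 0.042) and the phosphatase BSL2 (0.15 ± 0.05, adjusted p = 0.034), named after their values were seen. BIN2, BIL2 and BKI1 are known to restrain signalling and BAK1, BSK3 and BSL2 to promote it. LerXC24 alone gave 14 rises and 1 fall among the 50 genes (16.5% of all genes were called there). C24XLer alone gave 3 rises and 0 falls (2.34%). Of the 17 signalling genes 7 rose in LerXC24 and 0 in C24XLer. By the direct test 3 of the 17 were higher in LerXC24 than in C24XLer (4.91% of all genes called). BIN2 averaged 148.5 ± 27 CPM in LerXC24, 109 ± 6.6 CPM in C24XLer, 123 ± 23 CPM in C24 and 90.9 ± 7.6 CPM in Ler.

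Of 16 transcription factors 6 rose and 0 fell in the F1, led by BEE3, a close relative of BEE1 (0.98 ± 0.22, adjusted p = 0.0073), IBH1, which blocks growth-promoting factors of the same family (0.60 ± 0.19, adjusted p = 0.043), and GATA2 (0.42 ± 0.14, adjusted p = 0.044), a gene that BZR1 is known to repress. Of 6 targets that the hormone raises 1 rose, the growth gene ARL (0.81 ± 0.20, adjusted p = 0.011). The calls of BIN2, BKI1, DWF5, IBH1 and GATA2 each ended in 7 to 9 of the 12 fits without 1 library, and that of HYD1 without C24XLer B or C24XLer C (-0.18 to -0.17, adjusted p = 0.064). The calls of DET2, BIL2, BEE3 and ARL ended in none of them. For BAK1, BSK3 and BSL2 no result of these or the following alternative fits is given, so it is not shown whether their calls hold. With the clock index in the fit DET2 (0.35, adjusted p = 0.0011) and IBH1 (0.76, adjusted p = 0.042) were still called, and 8 of the named genes were not. These were BEE3 (0.72, adjusted p = 0.065), ARL (0.64, adjusted p = 0.10), BIL2 (0.15, adjusted p = 0.123), BIN2 (0.09, adjusted p = 0.541), BKI1 (0.21, adjusted p = 0.171), DWF5 (0.13, adjusted p = 0.279), HYD1 (-0.19, adjusted p = 0.085) and GATA2 (0.32, adjusted p = 0.258). With only the F1 and parents in the fit the calls of BIN2, BKI1, BIL2, HYD1, DWF5, IBH1 and GATA2 ended (adjusted p = 0.055 to 0.136). DET2, HYD1, BIN2, BIL2 and BAK1 overlap another counted gene and are uncertain to that extent.

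Between the parents 9 of the 50 genes were higher in C24 and 5 lower, a share near the 25.8% of all genes called. The genes below are given by size of change and are no sign that the pathway stands apart. TCP1, a factor that activates DWF4, was lower in C24 (-1.51 ± 0.20, adjusted p = 1.9e-06), with BEE3 at 0.92 ± 0.32 (adjusted p = 0.035) and BEH1, a relative of BZR1, at 0.69 ± 0.10 (adjusted p = 1.5e-05) higher there. The inactivating reductase BEN1 (0.70 ± 0.14, adjusted p = 3.7e-04), DET2 (0.40 ± 0.07, adjusted p = 2.2e-04) and DWF1, an early reductase (0.39 ± 0.08, adjusted p = 3.3e-04), were higher in C24. Of the signalling genes the phosphatase BSL1 (0.62 ± 0.09, adjusted p = 6.5e-06) and BIN2 (0.44 ± 0.12, adjusted p = 0.0092) were higher and the receptor BRL3 was lower (-0.60 ± 0.15, adjusted p = 0.0029). IAA19, an auxin gene that brassinosteroid also raises, was lower in C24 (-0.45 ± 0.11, adjusted p = 0.0048). The BIN2 call ended without C24 C (0.28, adjusted p = 0.115) and the BEE3 call without C24 C, Ler A or Ler B (0.53 to 0.78, adjusted p = 0.140 to 0.288). With only the parents in the fit BIN2 (adjusted p = 0.054) and BEE3 (adjusted p = 0.116) were not called, nor when the clock index was added (BIN2 0.17, adjusted p = 0.281; BEE3 0.46, adjusted p = 0.395). BSL1, BRL3 and DWF1 overlap another counted gene.

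When mimics and other F6 lines were set against each other, ARL was the 1 gene of the 50 that was called (1.14 ± 0.12, adjusted p = 0.014), a call that ended without HM-W, HM-S or Sml-D (1.04 to 1.20, adjusted p = 0.066 to 0.071) and when the clock index was added (1.04, adjusted p = 0.146). All 6 of the targets that the hormone raises were higher in the mimics, and 5 of these differences were not called. Their median log2 change was 1.04 and that of all genes -0.01. Among these targets TCH4 varied widely within lines, with 39.2 ± 23 CPM in Sml-D and 7.24 ± 6.1 CPM in Med-E. Against the mid-parent HM-W had 17 rises and 3 falls among the 50 genes (24.7% of all genes were called), HM-S had 15 and 1 (29.5%), and HM-G had 8 and 3 (13.4%). Med-E had 1 rise and 6 falls (14.6%), Med-F had 8 and 5 (22.7%), and Sml-D had 4 and 2 (13.1%). The counts of HM-S, Med-E, Med-F and Sml-D lie near the share of all genes.

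**Figure D4:**
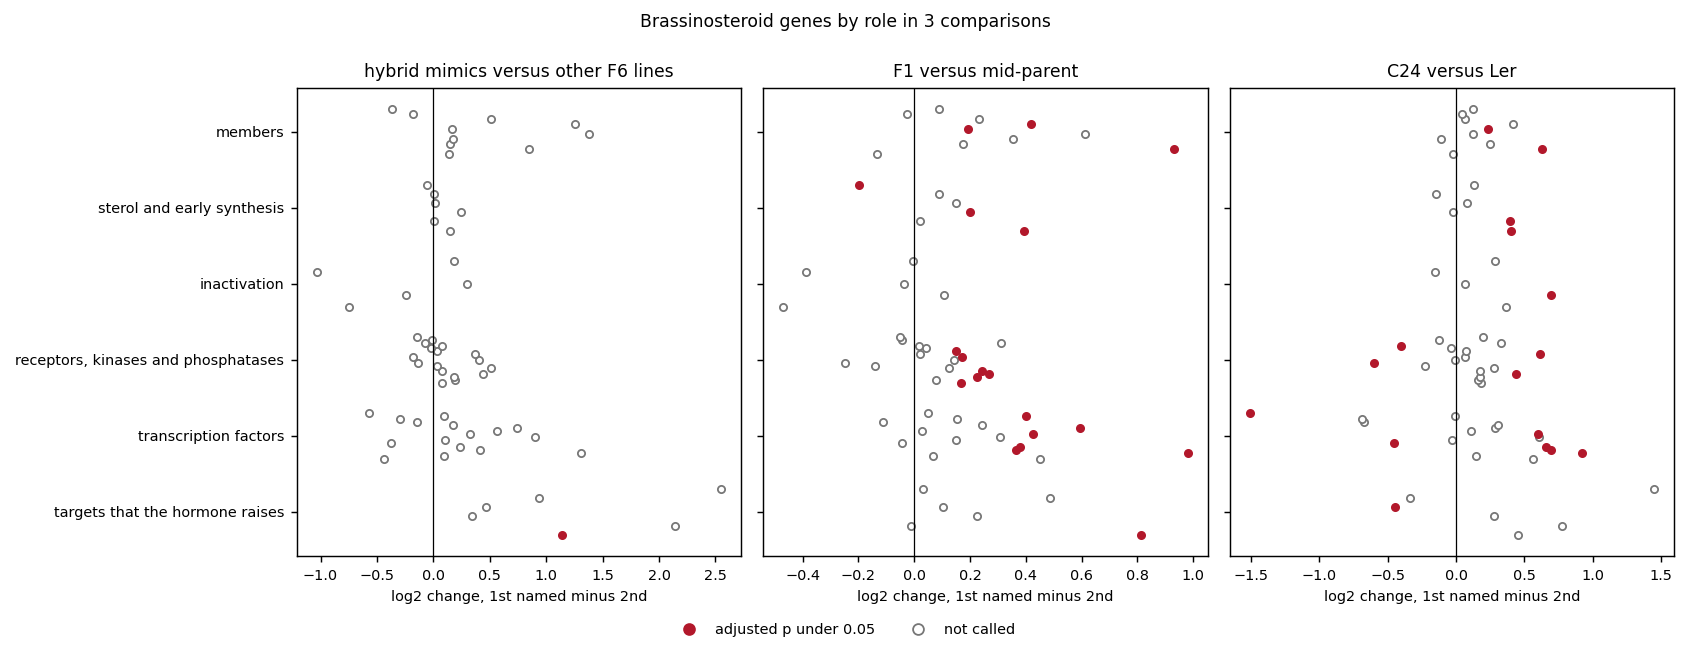
Log2 change (horizontal axis) of the 10 genes (top row) and of 50 further brassinosteroid genes by role (rows below) in 3 comparisons, with red points for an adjusted p under 0.05 and open points otherwise. In the F1 6 of the transcription factors and 6 of the signalling genes are called, all above the mid-parent, and among mimics against other F6 lines ARL is the 1 red point, at 1.14.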

How the data were processed

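RNA was measured in whole aerial tissue, extracted with RNeasy kits and made into TruSeq libraries, per the labels' protocols. The deposited gene table holds whole-number read counts for each gene model, not normalized, as the values show. A deposited depth table holds counts of reads per class, per the file headers. The build was TAIR10 and the tools named are FastQC and DESeq, per the submitters' processing notes. The sources used here do not name an aligner or a counter or say if strand was used.

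The main tests used edgeR 4.0.16 (R 4.3.3, limma 3.58.1) and TMM library sizes (factors 0.943 to 1.08). The filter filterByExpr, at a minimum of 10 counts, left 29268 genes. A quasi-likelihood model of all 30 libraries had a term for every line, and p-values were adjusted by the method of Benjamini and Hochberg over all genes of a comparison, and a gene was called at an adjusted p under 0.05. The parental coefficients, averaged on the log scale, gave the mid-parent. For the mimics against the other F6 lines, sibling libraries were summed and 29951 genes were tested. P-values measure the spread between these libraries, which may in part be technical. Levels per kilobase and positions use RefSeq's TAIR10.1, which was matched by AGI identifier (32742 of 33498 found) and from which the sequences were read. The fit was tested on simulated data. Alternatives were DESeq2 1.42.0, its size factors, no filter, leaving out single libraries, a replicate block, fits with only the compared lines, an arithmetic mid-parent, the clock index as a covariate and 9 against 9 sibling libraries.

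The 10 genes, the lists and the clock genes were chosen with earlier results of these data known. Pathway genes are named where called, up to 3 per list with the largest change in 3 comparisons, and likeness is given for 2 genes per member. BAK1, BSK3 and BSL2 were named in addition, after their values were seen.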

Additional observations from a re-analysis of the deposited data

Results flagged for a closer look

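The reciprocal hybrids differed at 2 of the 10 genes by the direct test. BR6OX2 was higher in LerXC24 than in C24XLer by a log2 change of 1.27, and CPD by 0.71. The crosses have the same parents in opposite roles, and the clock index averaged -1.05 in LerXC24 and -2.19 in C24XLer. With the index in the fit both differences were smaller (BR6OX2 0.46, CPD 0.11) and not called, and the part of the clock was not tested.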

How the results depend on the processing

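Counts of calls among the 10 genes moved with some settings. The all-gene counts moved too: with the clock index they fell in the F1 (1372, against 3378) and between the reciprocal hybrids (0, against 1438), so these drops were not confined to the 10 genes. With the clock index as a covariate, 0 genes were called between the parents, 1 in the F1 together, 1 in the single hybrids (6 in the fit without it), 0 between the reciprocal hybrids, 16 in the F6 lines (28 without it) and 6 pairs outside the parental range (19 without it). When the fit held the compared lines alone, 0 were called between the parents, 1 in the F1 and 0 between the hybrids. In the mimics against the other F6 lines, DESeq2 called 4 and a fit of 9 against 9 sibling libraries called 7, both against 0. Over all genes those settings called 2964 of 27235 and 8716 of 28170, against 444 of 29951. Leaving out 1 library or line gave 0 to 2 calls between the parents, 1 to 4 in the F1, 0 to 2 between the hybrids, 0 to 2 in the mimics and 12 to 20 pairs outside the range. It gave 4 to 6 in the single hybrids, 24 to 30 in the F6 lines and 9 to 10 among all lines. Shared letters are not known from the labels to mark a shared batch. Deviations of same-lettered libraries correlated above 0.1 in 7 of 18 pairs of the parents and F1 (mean 0.085, against -0.042 for different letters) and of same-numbered siblings in 4 of 45, short of every pair, although library C had the highest clock index in all 4 lettered lines. A replicate block raised the all-gene count between the reciprocal hybrids to 2208, against 1438. A replicate block left these counts at 2, 3, 6, 2, 28 and 9 and gave 21 pairs outside the range. It ended the calls of DWF4 in HM-W (adjusted p = 0.0505), BKI1 (0.051) and GATA2 (0.053) in the F1 and made that of BES1 in HM-G (0.049). DESeq2 size factors and no filter on low counts changed none of 77 single values. The arithmetic mid-parent changed 3 of 54 single values, called or not, by ending the calls of BIN2, BKI1 and GATA2 in the F1. No alternative reversed a direction, and the cause of the lost calls was not tested. Counts of 77 to 254 limit BR6OX1.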
